A study of Homo sapiens with 12 samples.

Results

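Ribosome footprints were followed on 10 genes of splicing control, the serine/arginine-rich (SR) splicing factors SRSF1, SRSF2, SRSF3, SRSF4, SRSF5, SRSF6, SRSF7, SRSF10 and SRSF11 and the kinase CLK1. They were taken by their Ensembl identifiers, printed below with each gene's level, from a table of 19580 genes, and all 10 passed the filter on low values that left 11510 genes for testing. SR proteins join RNA recognition motifs to a domain rich in arginine and serine repeats, bind enhancer sequences in exons and help the spliceosome to find the neighbouring splice sites. CLK kinases phosphorylate these repeats in the nucleus and release SR proteins from nuclear speckles, their storage sites. Many SR genes limit their own output through exons that carry an early stop codon, and CLK1 transcripts are known to wait in the nucleus with introns retained.

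The libraries came from HAP1, a near-haploid human line derived from KBM-7 cells, of wild-type genotype in every group. Cells of the 4SU+UVA group carried 4-thiouridine (4SU, 5 uM for 18 h), a uridine analogue that enters new RNA, and then received 6 kJ/m2 of long-wave ultraviolet light (UVA), which crosslinks the labelled RNA to bound proteins, with 30 min of recovery. The 4SU group received the nucleoside without light. The UVA group received the light and 30 min of recovery without nucleoside, and the untreated group neither treatment. Each group had 3 libraries, described by the submitters as biological replicates, and all came from 1 cell line. Library totals, worked out from the steps in the deposited values, ran from 1899854 to 5832366 reads, with the lowest total in 4SU+UVA replicate 2. Within groups, libraries correlated at 0.982 to 0.991 (Pearson, log2 values across genes, which are not independent replicates), and every pair differed by more than counting noise.

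Values are in RPKM, a read count divided by the length of the transcript and by the size of the library. They are shares of a library, so a gene's RPKM falls when other genes take more reads, and a footprint level follows both the amount of mRNA and the ribosomes on it, which cannot be told apart here. The transcript length behind each RPKM, found from the same steps, ran from 1638 nt for SRSF5 to 5343 nt for SRSF1 among the 10 genes, against a median of 2616.5 nt over the genes tested. These lengths include untranslated regions, which lowers the RPKM of a gene with a long one. Over all 12 libraries CLK1 had 1612 reads, the fewest of the 10 genes, while SRSF2 had 54806.

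The order of RPKM levels was led by the same 5 genes in every group. SRSF2 (ENSG00000161547.17), a factor concentrated in nuclear speckles, came first with 501 ± 26.4 RPKM in 4SU+UVA, 304 ± 4.87 in 4SU, 356 ± 15.0 in UVA and 334 ± 8.61 in untreated cells (SD, n = 3 each). SRSF7 (ENSG00000115875.19), which carries a zinc knuckle and also acts in mRNA export, followed with 273 ± 15.6 RPKM in 4SU+UVA, 219 ± 11.2 in 4SU, 254 ± 8.41 in UVA and 239 ± 11.0 in untreated cells (SD, n = 3 each). After it stood SRSF5 (ENSG00000100650.16), SRSF1 (ENSG00000136450.13) and SRSF3 (ENSG00000112081.17), and no neighbours among these first 5 overlapped in any group. The order depends on the transcript lengths, which include untranslated regions. SRSF1 had 42720 reads on 5343 nt, and SRSF5, placed above it, had 17462 reads on 1638 nt.

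The lower part of the order differed in the 4SU+UVA libraries. SRSF4 (ENSG00000116350.18) was the sixth gene in the 4SU, UVA and untreated groups, apart from its neighbours in each, but the eighth in 4SU+UVA, where every neighbouring pair from SRSF6 down to CLK1 overlapped. In UVA, SRSF6 (ENSG00000124193.16) and SRSF11 (ENSG00000116754.14) overlapped as well, and SRSF10 (ENSG00000188529.15) was the ninth gene in all groups. CLK1 (ENSG00000013441.17) was last in every group by its mean level, with 35.1 ± 11.5 RPKM in 4SU+UVA, 12.3 ± 1.80 in 4SU, 9.52 ± 1.21 in UVA and 15.6 ± 2.58 in untreated cells (SD, n = 3 each).

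**Figure D1:**
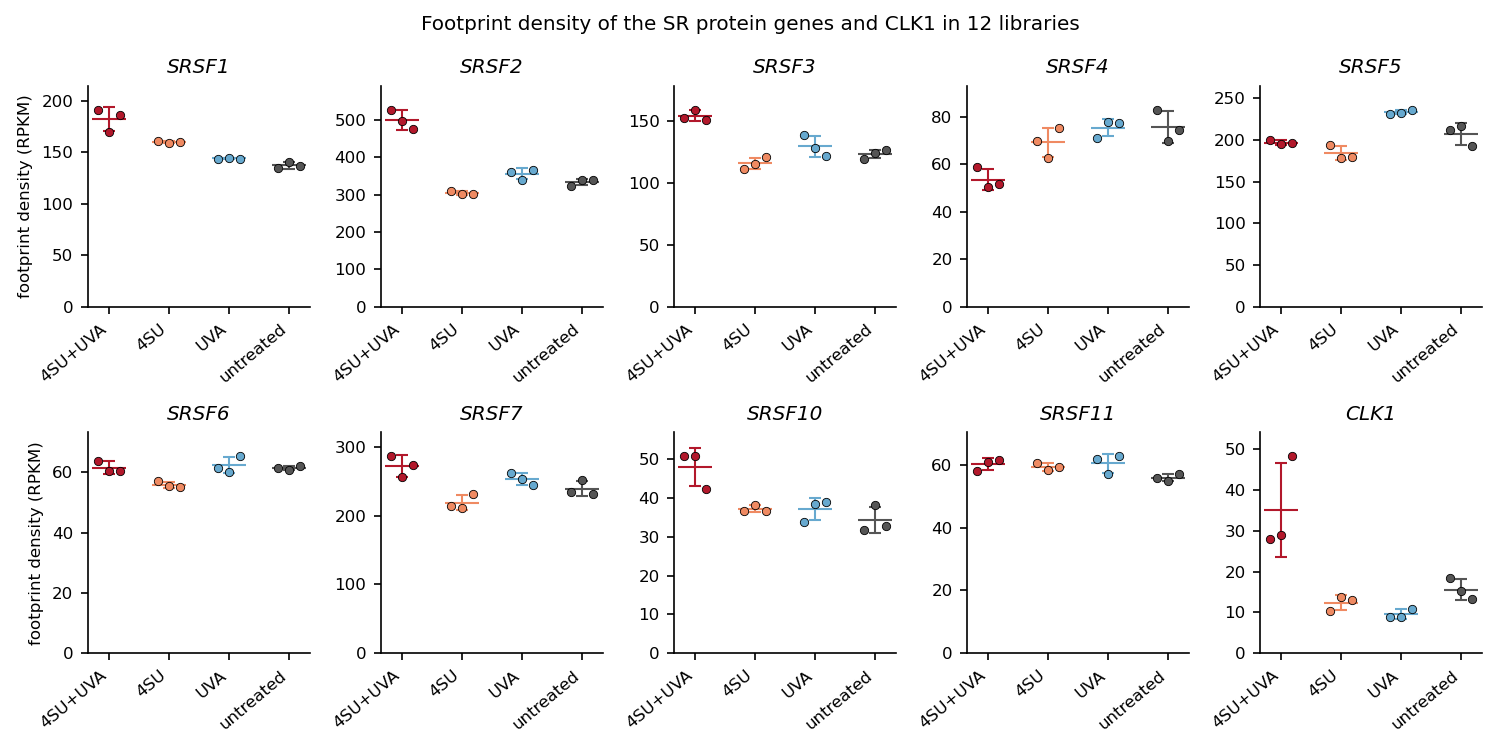
Footprint level in RPKM of each of the 10 genes in every library, by group, with the group mean and SD (n = 3 libraries each). All 4SU+UVA libraries lie above all untreated libraries for 7 genes (CLK1, SRSF1, SRSF2, SRSF3, SRSF7, SRSF10 and SRSF11), and below them for SRSF4. Of all genes tested, 43.6% were separated upwards and 20.2% downwards.

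Crosslinked cells were first set against untreated cells, the central comparison of the design. Footprints on CLK1 rose about 2.16-fold, those on SRSF1, SRSF2, SRSF3, SRSF7 and SRSF10 rose by smaller amounts, and those on SRSF4 fell, while SRSF5, SRSF6 and SRSF11 did not pass the test. That is 6 genes higher and 1 lower of 10, in a comparison in which 40.6% of all genes tested were higher and 18.4% lower. The 10 genes were chosen with earlier results of these data known. Their counts and medians, in every comparison, therefore measure no excess over all genes. The median log2 change of the 10 genes was 0.25, beside 0.23 over all genes tested, and single genes ran from -0.50 (SRSF4) to 1.11 (CLK1). With each library centred on its median gene, 4 of the 10 were higher and 3 lower, and over all genes 3107 were higher and 2888 lower in place of 4674 and 2122. Centring brought the median change of all genes to 0.06.

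CLK1 had 28.02, 29.1 and 48.4 RPKM in the 4SU+UVA libraries, against 18.3, 15.3 and 13.2 RPKM in the untreated libraries. All crosslinked libraries lay above all untreated ones, and replicate 3 of 4SU+UVA stood well above the other two. The log2 change was 1.11 (SE 0.19, limma adjusted p = 0.00015), higher than that of 95.5% of the genes tested. Without 4SU+UVA replicate 3 it was 0.86, still past the threshold. The 4SU+UVA values rested on 286, 102 and 272 CLK1 reads, against 128, 149 and 142 reads in untreated cells. The coefficient of variation of the 4SU+UVA levels was 32.6%, set by the high value of replicate 3, while counting error alone gives 7.52%.

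SRSF2 had 528, 499 and 476 RPKM in the 4SU+UVA libraries, against 324, 338 and 339 RPKM in the untreated libraries. The groups lay far apart relative to their spread, and the log2 change was 0.59 (SE 0.05, limma adjusted p = 5.9e-07). That was higher than the change of 75.9% of the genes tested. SRSF3, a small SR protein that also serves as an mRNA export adaptor, had 152, 159 and 150 RPKM in 4SU+UVA, against 119, 123.5 and 126 RPKM in untreated cells. Its log2 change was 0.32 (SE 0.06, limma adjusted p = 0.0005), higher than that of 56.7% of the genes tested. The SRSF3 call was lost when libraries were centred on their median gene (0.15, limma adjusted p = 0.078), while those of SRSF1, SRSF2, SRSF10, SRSF4 and CLK1 held under each of the 15 alternatives run for this comparison.

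SRSF1, an enhancer-binding factor that helps U1 to settle on splice sites, had 191, 170 and 186 RPKM in the 4SU+UVA libraries, against 134, 140 and 137 RPKM in the untreated libraries. SRSF10, which turns into a splicing repressor when it loses its phosphates in heat-shocked or mitotic cells, had 50.8, 50.9 and 42.5 RPKM in 4SU+UVA, against 31.9, 38.2 and 32.9 RPKM in untreated cells. In both genes every crosslinked library was above every untreated one. The log2 changes were 0.41 for SRSF1 (SE 0.06, limma adjusted p = 2.6e-05) and 0.48 for SRSF10 (SE 0.09, limma adjusted p = 0.00055). They were higher than those of 63.4% and 68.9% of the genes tested.

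SRSF7 showed the smallest rise that passed, with 287, 256 and 275 RPKM in 4SU+UVA, against 234, 252 and 232 RPKM in untreated cells. The log2 change was 0.19 (SE 0.06, limma adjusted p = 0.016), higher than that of 46.4% of the genes tested. The call rested on single libraries: with 4SU+UVA replicate 1 left out it became 0.15 (limma adjusted p = 0.062), with untreated replicate 1 left out 0.17 (limma adjusted p = 0.053), and with untreated replicate 3 left out 0.16 (limma adjusted p = 0.065). It was also lost with median centring (0.02, limma adjusted p = 0.86), with quantile normalisation (0.13, limma adjusted p = 0.072) and without the variance trend (limma adjusted p = 0.054).

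SRSF4, the SR protein with one of the longest arginine/serine domains, was the gene that moved the other way. It had 58.7, 50.3 and 51.4 RPKM in the 4SU+UVA libraries, against 82.9, 69.8 and 74.2 RPKM in the untreated libraries. All crosslinked libraries were below all untreated ones, and the log2 change was -0.50 (SE 0.09, limma adjusted p = 0.00025). Of the genes tested, 11.5% had a lower change.

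The 3 genes that did not pass were closer to the untreated level. SRSF5 averaged 197 ± 2.82 RPKM in 4SU+UVA and 207 ± 12.8 RPKM in untreated cells (SD, n = 3 each), a log2 change of -0.07 with a 95% interval of -0.19 to 0.05. SRSF6, like SRSF5 a classical SR protein with a pair of RNA recognition motifs, averaged 61.6 ± 2.05 RPKM in 4SU+UVA, against 61.4 ± 0.665 RPKM in untreated cells (SD, n = 3 each), with an interval of -0.13 to 0.13 for the log2 change. SRSF11, a more distant SR-related protein, averaged 60.4 ± 1.84 RPKM in 4SU+UVA, against 56.1 ± 1.20 RPKM in untreated cells (SD, n = 3 each), with an interval of -0.03 to 0.24, and its 4SU+UVA libraries were all above the untreated ones. With median centring SRSF5 passed as lower (-0.24, limma adjusted p = 0.0026), and so did SRSF6 (-0.17, limma adjusted p = 0.042). Libraries of the groups did not overlap for 8 of the 10 genes, 7 above and 1 below, while 43.6% of all genes tested were separated upwards and 20.2% downwards.

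**Figure D2:**
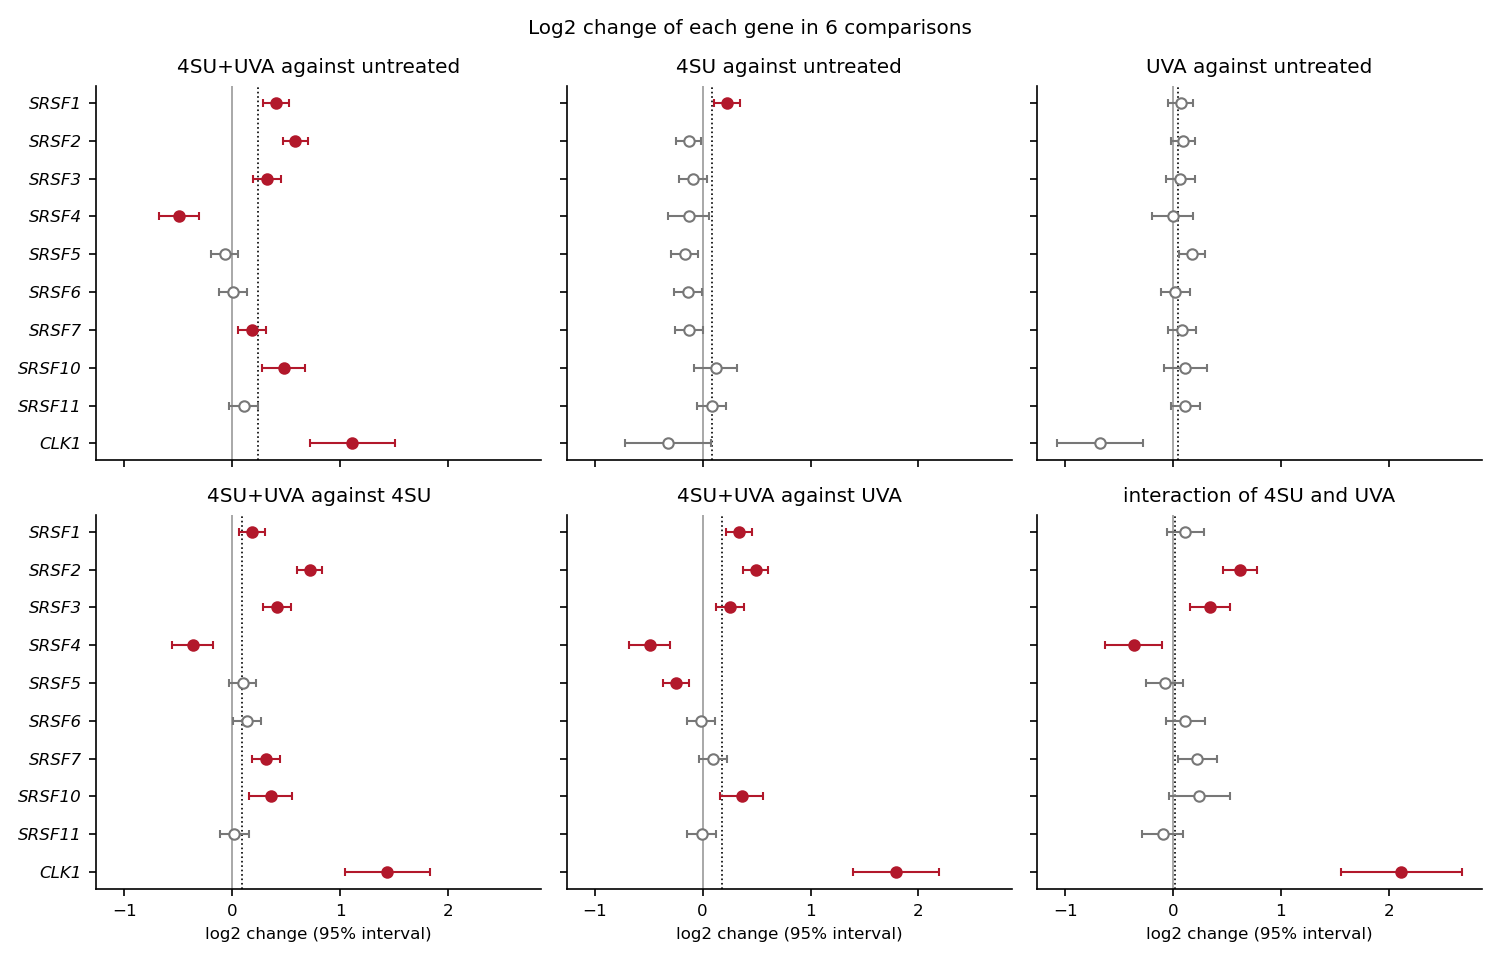
Log2 change of the 10 genes in each comparison, with 95% intervals from limma and a line at the median change of all genes tested. CLK1 has the largest rise of the 10 genes in each comparison of 4SU+UVA cells (1.11 against untreated, 1.44 against 4SU and 1.79 against UVA), and SRSF4 lies below 0 in all of these.

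The start regions of CLK1 and SRSF3, which rose, and of SRSF4, which fell, are shown to set their letters side by side. Each is the 150 bases before the outermost annotated start in RefSeq (GRCh38.p14), written 5′ to 3′ on the gene's strand. Capitals mark matches, on either strand, to TATAAA (the core of a TATA box), CCAAT (the CCAAT box) and TGACG (part of the cyclic-AMP response element), motifs picked after these windows had been read. The windows are chr2:200864659-200864808 (minus strand) for CLK1, chr6:36594212-36594361 (plus strand) for SRSF3 and chr1:29181901-29182050 (minus strand) for SRSF4.
CLK1: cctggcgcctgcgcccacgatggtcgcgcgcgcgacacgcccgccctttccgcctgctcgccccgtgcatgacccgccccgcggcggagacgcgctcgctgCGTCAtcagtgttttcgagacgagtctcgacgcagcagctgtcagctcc
SRSF3: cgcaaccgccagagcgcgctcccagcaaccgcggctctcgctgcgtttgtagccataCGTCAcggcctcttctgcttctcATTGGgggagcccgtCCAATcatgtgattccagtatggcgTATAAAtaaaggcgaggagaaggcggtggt
SRSF4: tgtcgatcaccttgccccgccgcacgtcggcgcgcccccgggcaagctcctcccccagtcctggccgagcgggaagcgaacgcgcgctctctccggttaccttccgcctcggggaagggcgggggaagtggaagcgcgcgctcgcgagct
SRSF3 held TATAAA at -30 from the start, CCAAT at -70 and -55, and TGACG at -93. CLK1 held TGACG at -49, and SRSF4 held none of the 3 motifs. No matches overlapped. Windows were at hand for 9 of the 10 genes, all but SRSF2. TGACG was found in 5 of these 9 (CLK1, SRSF1, SRSF3, SRSF5 and SRSF11) and in 15.4% of 35116 promoters of the same length, TATAAA in 1 of the 9 and 6.71% of promoters, and CCAAT in 1 of the 9 and 23.5% of promoters. Since the motifs were picked after windows of these genes had been read, the counts do not measure an excess over other promoters. Of the genes that held TGACG, CLK1, SRSF1 and SRSF3 rose, while SRSF5 and SRSF11 did not pass. SRSF7 and SRSF10, which rose, SRSF4, which fell, and SRSF6, which did not pass, held none of the 3. Whether the motifs bear on the changes was not tested. A match describes letters in the window and is no evidence of binding.

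The makeup of the SR family shifted towards SRSF2 in crosslinked cells. SRSF2 held 32.7 ± 0.861% of the summed RPKM of the 9 SR genes in 4SU+UVA, against 26.3 ± 0.654% in untreated cells (SD, n = 3 each), while its share was 25.3% in 4SU and 26.3% in UVA. The share of SRSF4 was 3.49% in 4SU+UVA, 5.73% in 4SU and 5.57% in UVA, against 5.97% in untreated cells. SRSF5 held 12.9% in 4SU+UVA, 15.3% in 4SU and 17.3% in UVA, against 16.3% in untreated cells. The summed RPKM of the 9 genes was itself 1530 ± 52.5 in 4SU+UVA, 1205 ± 21.1 in 4SU and 1353 ± 18.1 in UVA, against 1268 ± 23.3 in untreated cells (SD, n = 3 each). Together with CLK1 they took 0.489% of all reads in 4SU+UVA libraries, 0.382% in 4SU and 0.415% in UVA, against 0.392% in untreated libraries.

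**Figure D3:**
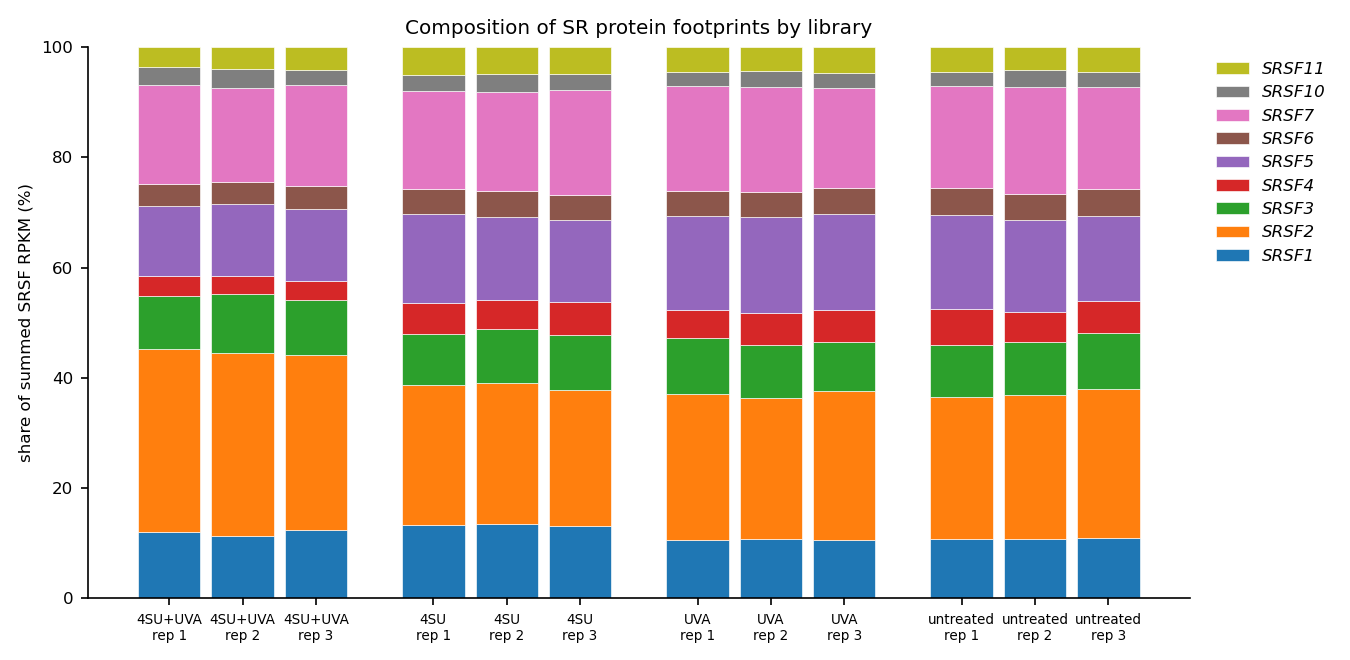
Share in percent of the summed RPKM of the 9 SR genes that each gene held, with a stacked bar for each library. As group means of 3 libraries, SRSF2 takes 32.7% in 4SU+UVA and between 25.3% and 26.3% in the other groups. The mean share of SRSF4 is 3.49% in 4SU+UVA and between 5.57% and 5.97% in the others.

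Ratios within a library of deposited values do not change when a library is multiplied by 1 factor, though quantile normalisation can change them. The ratio of SRSF2 to SRSF4 RPKM was 9.39 ± 0.468 in 4SU+UVA, 4.43 ± 0.414 in 4SU and 4.74 ± 0.364 in UVA, against 4.44 ± 0.483 in untreated cells (SD, n = 3 each). Every 4SU+UVA library lay above every other library, which follows from the pair chosen. Against untreated cells SRSF2 had the largest rise of the SR genes, and SRSF4 was the SR gene called lower. The ratio is therefore no separate support for either change. CLK1 stood at 2.31 ± 0.8004% of the summed SR RPKM in 4SU+UVA, 1.02 ± 0.161% in 4SU and 0.704 ± 0.0862% in UVA, against 1.23 ± 0.207% in untreated cells (SD, n = 3 each). A ratio shows unequal change and not which gene moved.

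**Figure D4:**
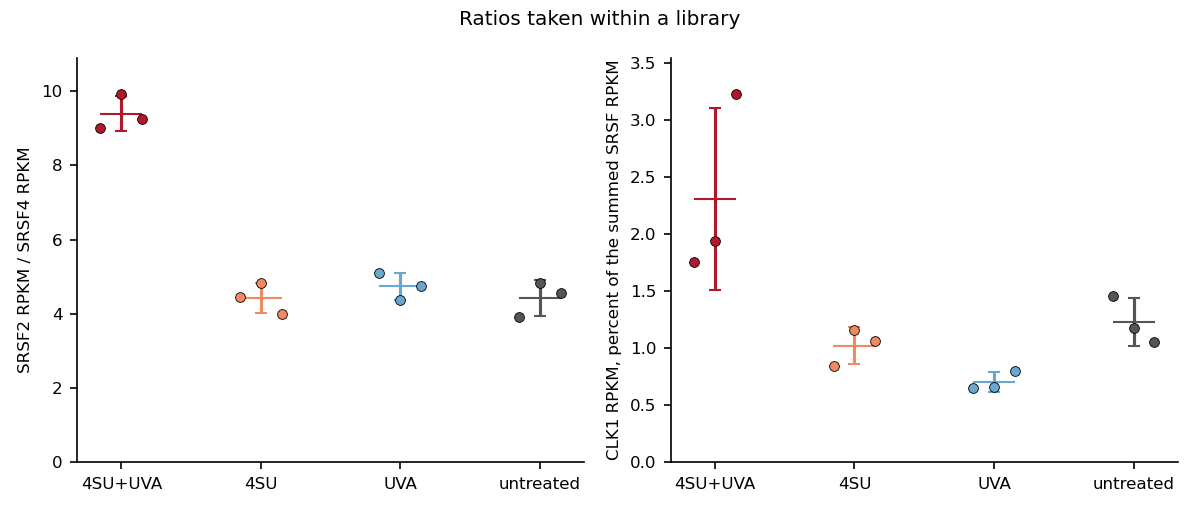
Ratio of SRSF2 to SRSF4 RPKM (left) and CLK1 RPKM as a percent of the summed SR RPKM (right) in each library, with group mean and SD (n = 3 libraries each). The mean SRSF2 to SRSF4 ratio is 9.39 in 4SU+UVA and between 4.43 and 4.74 in the other groups.

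Light alone left the 10 genes without a call. None of them passed in UVA against untreated cells, where 0.278% of all genes tested were higher and 0.374% lower by limma, and voom on the recovered reads called none of the 10 either. At an unadjusted limma p under 0.05 there were 2 of the 10 genes, CLK1 and SRSF5, beside 8.43% of all genes tested. CLK1 had 8.87, 8.78 and 10.9 RPKM in the UVA libraries, against 18.3, 15.3 and 13.2 RPKM in the untreated libraries. The UVA libraries were all below the untreated ones, the opposite side from the 4SU+UVA libraries. The share of all genes tested that were separated in this comparison was not counted. The log2 change was -0.68 (SE 0.19, 95% interval -1.07 to -0.28), lower than that of all but 0.226% of the genes tested, with an unadjusted limma p of 0.0025 and an adjusted p of 0.19. SRSF5 had 232, 232 and 237 RPKM in UVA, against 212, 217 and 193 RPKM in untreated cells, a log2 change of 0.17 with an unadjusted limma p of 0.0086 and an adjusted p of 0.35. The other log2 changes were 0.07 for SRSF1, 0.09 for SRSF2, 0.07 for SRSF3, -0.0035 for SRSF4, 0.02 for SRSF6, 0.09 for SRSF7 and 0.11 for both SRSF10 and SRSF11, with limma adjusted p of 0.68 or more.

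With the nucleoside alone only SRSF1 passed the test, and its call held in 9 of the 15 alternatives run. In 4SU against untreated cells SRSF1 had 161, 159 and 160 RPKM in the 4SU libraries, against 134, 140 and 137 RPKM in the untreated libraries. It was the 1 gene of 10 called, as higher, where 11.3% of all genes tested were higher and 3.12% lower, and its log2 change was 0.22 (SE 0.06, limma adjusted p = 0.017). That call was lost without 4SU replicate 1 (0.22, limma adjusted p = 0.055), 4SU replicate 2 (0.23, limma adjusted p = 0.051), untreated replicate 1 (0.21, limma adjusted p = 0.058) or untreated replicate 3 (0.22, limma adjusted p = 0.057). It was also lost without the variance trend (limma adjusted p = 0.059) and with median centring (0.10, limma adjusted p = 0.31).

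The other genes lay on both sides of the untreated level in 4SU cells. Log2 changes were -0.13 for SRSF2, -0.09 for SRSF3, -0.13 for SRSF4, -0.17 for SRSF5, -0.13 for SRSF6 and -0.13 for SRSF7, and 0.12 for SRSF10 and 0.09 for SRSF11, none past the threshold. The median over the 10 genes was -0.13, beside 0.09 over all genes tested. With each library centred on its median gene no member was higher and 5 were lower, namely SRSF2, SRSF3, SRSF5, SRSF6 and SRSF7, while over all genes tested 640 were higher and 1080 lower in place of 1295 and 359. CLK1 had 10.3, 13.7 and 13.0 RPKM in the 4SU libraries, against 18.3, 15.3 and 13.2 RPKM in the untreated libraries, a log2 change of -0.32 with a 95% interval of -0.72 to 0.07 (limma adjusted p = 0.26).

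Light given to cells that carried 4SU moved most of the 10 genes. In 4SU+UVA against 4SU, CLK1, SRSF1, SRSF2, SRSF3, SRSF7 and SRSF10 rose and SRSF4 fell, 6 higher and 1 lower, where 25.0% of all genes tested were higher and 19.0% lower. The 10 genes had a median log2 change of 0.25, beside 0.09 over all genes tested. CLK1 led with 1.44 (SE 0.19, limma adjusted p = 2.7e-05), with 28.02, 29.1 and 48.4 RPKM in 4SU+UVA, against 10.3, 13.7 and 13.0 RPKM in 4SU cells. SRSF2 rose by 0.72 on the log2 scale (limma adjusted p = 1.8e-07), with the lowest 4SU+UVA library at 475.7 RPKM and the highest 4SU library at 309.96 RPKM. SRSF4 had 58.7, 50.3 and 51.4 RPKM in 4SU+UVA, against 69.7, 62.6 and 75.0 RPKM in 4SU cells, a log2 change of -0.37 (limma adjusted p = 0.0037).

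The other calls of that comparison were smaller. SRSF3 rose by 0.41 (limma adjusted p = 9.8e-05), SRSF10 by 0.36 (limma adjusted p = 0.0064), SRSF7 by 0.31 (limma adjusted p = 0.00081) and SRSF1 by 0.18 (limma adjusted p = 0.015) on the log2 scale. The SRSF1 call was lost without 4SU+UVA replicate 1 (0.15, limma adjusted p = 0.055), with only these 2 groups in the fit (limma adjusted p = 0.071) and with median centring (0.14, limma adjusted p = 0.08). SRSF6 had a log2 change of 0.14 (limma adjusted p = 0.081), which passed without the filter on low values (limma adjusted p = 0.049) and with quantile normalisation (0.17, limma adjusted p = 0.026). SRSF5 and SRSF11 had log2 changes of 0.10 and 0.02, with limma adjusted p of 0.19 and 0.82.

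The nucleoside in irradiated cells gave calls in both directions. In 4SU+UVA against UVA, CLK1, SRSF1, SRSF2, SRSF3 and SRSF10 rose and SRSF4 and SRSF5 fell, 5 higher and 2 lower, where 34.7% of all genes tested were higher and 19.8% lower. The median log2 change was 0.18 over the 10 genes and also 0.18 over all genes tested. CLK1 rose by 1.79 on the log2 scale (SE 0.19, limma adjusted p = 2.1e-06), about 3.46-fold, with 28.02, 29.1 and 48.4 RPKM in 4SU+UVA, against 8.87, 8.78 and 10.9 RPKM in UVA cells. SRSF5 had 200, 195 and 196 RPKM in 4SU+UVA, against 232, 232 and 237 RPKM in UVA cells. Its log2 change was -0.25 (limma adjusted p = 0.0024).

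The remaining calls against UVA cells covered SRSF2 at 0.49 (limma adjusted p = 3.2e-06), SRSF10 at 0.36 (limma adjusted p = 0.0044), SRSF1 at 0.34 (limma adjusted p = 0.00016), SRSF3 at 0.25 (limma adjusted p = 0.0033) and SRSF4 at -0.49 (limma adjusted p = 0.0003) on the log2 scale. SRSF3 lost its call with median centring (0.16, limma adjusted p = 0.059). SRSF7, SRSF6 and SRSF11 had log2 changes of 0.10, -0.02 and -0.01, with limma adjusted p of 0.18, 0.82 and 0.92. The comparisons of 4SU+UVA with untreated, 4SU and UVA cells share the 4SU+UVA libraries, and the 4SU and the UVA libraries also enter the comparisons of each single treatment with untreated cells.

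Whether light acted differently with and without the nucleoside was tested as an interaction, the log2 change of UVA in 4SU cells minus its log2 change in cells without 4SU. CLK1, SRSF2 and SRSF3 were higher and SRSF4 lower, 3 and 1 of 10, where 10.7% of all genes tested were higher and 14.1% lower. For CLK1 the interaction was 2.12 (SE 0.26, limma adjusted p = 5.5e-05): the single changes of 4SU and UVA sum to -1.001 on the log2 scale, and the joint treatment gave 1.11. For SRSF2 it was 0.62 (SE 0.08, limma adjusted p = 4.4e-05), with a sum of -0.04 and a joint change of 0.59. For SRSF3 it was 0.34 (SE 0.09, limma adjusted p = 0.01), with a sum of -0.02 and a joint change of 0.32.

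These 3 interactions held under each of the 20 alternatives run. That of SRSF4 was near the threshold, at -0.36 (SE 0.12, limma adjusted p = 0.045), with a sum of -0.13 and a joint change of -0.50. It passed in 8 of the 20 alternatives. Leaving out any of 8 libraries lost it: replicate 2 or 3 of 4SU+UVA, of UVA or of untreated cells, or replicate 1 or 3 of 4SU, with values between -0.36 and -0.30 and a highest limma adjusted p of 0.12. The interaction of SRSF7 was 0.23 (limma adjusted p = 0.068) and passed without 4SU+UVA replicate 2 (0.27, limma adjusted p = 0.031), without 4SU replicate 3 (0.27, limma adjusted p = 0.037) and with voom on the recovered reads (0.24, limma adjusted p = 0.033). SRSF1, SRSF5, SRSF6, SRSF10 and SRSF11 did not pass.

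**Figure D5:**
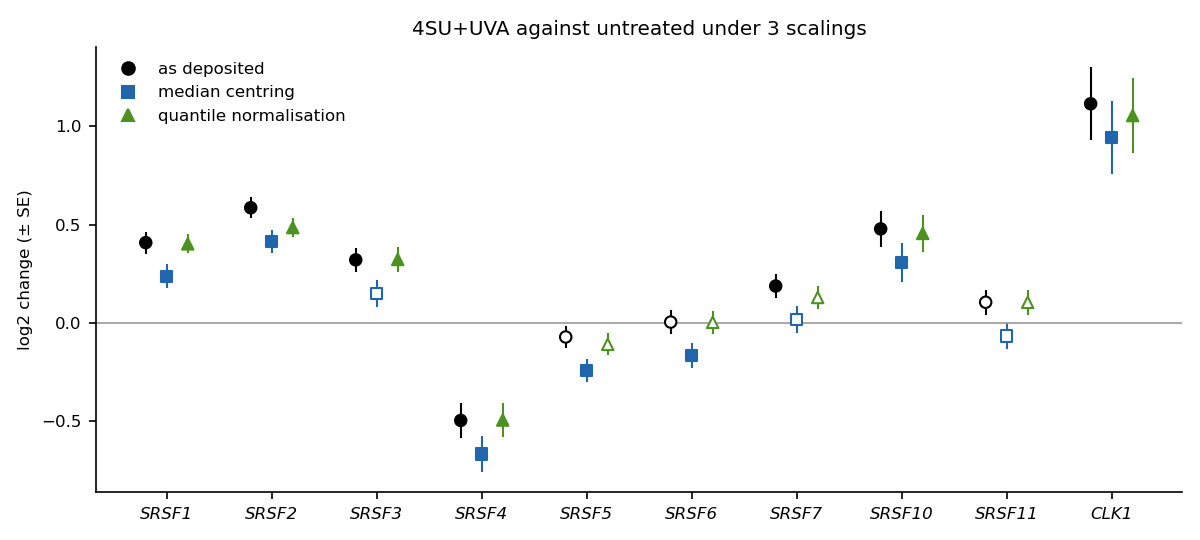
Log2 change of the 10 genes in 4SU+UVA against untreated cells with the deposited scaling, with each library centred on its median gene and with quantile normalisation, with bars for the SE from limma and filled symbols for changes past the threshold. CLK1, SRSF1, SRSF2, SRSF10 and SRSF4 pass under all 3 scalings, SRSF3 loses its call under median centring, and SRSF7 loses it under both alternatives.

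Some of the genes share their place in the genome with other genes. In RefSeq (GRCh38.p14) CLK1 lies on chr2:200853009-200864658 and SRSF3 on chr6:36594362-36605600, neither with an overlapping gene. SRSF2 lies on chr17:76734115-76737411 and overlaps MFSD11 and MIR636, and SRSF4 lies on chr1:29147743-29181900 and overlaps MECR. SRSF1 and SRSF5 overlap the uncharacterised genes LOC101929185 and LOC100289511. Named pseudogenes number 5 for SRSF3, 2 each for SRSF6 and SRSF10 and 1 each for SRSF1, SRSF2 and SRSF11. The sources used here do not state how reads shared with such neighbours or copies were counted, or whether strand was used.

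The genes most like CLK1 and SRSF2 in pattern were sought by Pearson correlation of log2 values over the 12 libraries, among 8130 genes with a mean of at least 5 RPKM. For CLK1 it was ENSG00000197903.8 (r = 0.94), with 5217 RPKM in 4SU+UVA, 3297 in 4SU and 2543 in UVA, against 3116 RPKM in untreated cells. For SRSF2, the SR gene whose group means ranged most, it was ENSG00000127540.12 (r = 0.98), with 279 RPKM in 4SU+UVA, 162 in 4SU and 191 in UVA, against 176 RPKM in untreated cells. Both identifiers carry no symbol in the tables at hand, and the correlations describe libraries of the same 4 groups. The next correlations were close behind, at 0.9358 and 0.9335 for CLK1 and 0.9785 and 0.9781 for SRSF2. Neither named gene is therefore set apart, and a correlation takes no account of the size of a change.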

How the data were processed

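The authors deposited RPKM values for 19580 genes in 12 ribosome footprint libraries. STAR 2.7.10a and the hg38 build are named per the submitters' processing notes. For the counting tool, annotation, filters and strand setting the sources used here give nothing. Per the labels' protocols, lysates were digested with RNase I and footprints amplified by PCR, with no molecular identifiers described. Groups and replicate numbers came from the sample titles and treatments.

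The size of the steps between RPKM values gave the library totals, the transcript lengths and the reads behind each value. The procedure was tested on simulated data made with the same RPKM formula, which cannot show how the deposited values were made. A length that made all values whole within 0.001 reads was found for each of the 15937 genes with a read, which the search itself ensures. Tests used limma 3.58.1 in R 4.3.3 (variance trend, two-sided) on log2(RPKM + 0.5) for 11510 genes (1 RPKM or more in 3 or more libraries). The 12 libraries entered 1 model with 4 group means and 8 residual degrees of freedom, from which 5 pairwise comparisons and the interaction were drawn, adjusted by Benjamini-Hochberg within each, with a threshold of 0.05. A fold change on this scale understates the change of low genes. Precision rests on 3 libraries a group, and counting error (coefficients of variation from recovered reads) covers reads only, since PCR copies are not independent molecules.

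Alternatives were pseudocounts of 0.1 and 1, no low-value filter, median centring, quantile normalisation, no variance trend, voom on recovered reads, only the groups compared, a replicate block and leaving out each library. Members and lists were chosen with earlier results of these data known. All 10 members are named in every comparison, and the gene closest in pattern to CLK1 and to the widest-ranging SR gene is given. The members' identifiers were named by the given list. Other SR-related, kinase, hnRNP and cell type marker lists hold symbols, which the table does not carry, and were not analysed here, so the HAP1 label was not checked against markers.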

Additional observations from a re-analysis of the deposited data

Results flagged for a closer look

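The response to light differed between cells with and without 4SU for 4 of the 10 genes by the limma interaction test, 3 higher and 1 lower, where 10.7% of all genes tested were higher and 14.1% lower. On the log2 scale the difference was 2.12 for CLK1, whose footprints were higher with light in 4SU cells and lower, without passing the adjusted test, in cells without it. It was 0.62 for SRSF2 and 0.34 for SRSF3, and -0.36 for SRSF4, which passed in 8 of the 20 alternatives run.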

How the results depend on the processing

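Changes are on the log2 scale and counts are of genes past the limma threshold. CLK1, SRSF1, SRSF2, SRSF10 and SRSF4 kept their calls in 4SU+UVA against untreated cells under every alternative run. Median centring gave 3 members lower there (SRSF4, SRSF5 and SRSF6) and 3107 of all genes higher, and quantile normalisation gave 3011. In 4SU against untreated cells, median centring gave 0 members higher, 5 lower, and 640 genes higher and 1080 lower. Quantile normalisation gave 678 higher, leaving out the variance trend gave 0 members higher and 215 genes lower, and voom gave 596 lower. In UVA against untreated cells the genes higher numbered 16 with no low-value filter, 19 with median centring, 11 without the trend and 55 with voom, and those lower numbered 20 with quantile normalisation and 16 without the trend. In the interaction 0 members were lower with no low-value filter, median centring, quantile normalisation or no trend. Leaving out single libraries gave 0 to 1 members higher and 0 to 1 lower, and 580 to 1537 genes higher and 138 to 513 lower, in 4SU against untreated cells. It gave 15 to 31 genes higher in UVA against untreated cells and 0 to 1 members lower in the interaction. Signs turned only for changes that had not passed with the deposited scaling. In 4SU+UVA against untreated cells median centring gave -0.17 for SRSF6 and -0.066 for SRSF11. In 4SU against untreated cells it gave -0.0052 for SRSF10 and -0.0405 for SRSF11, in UVA against untreated cells -0.0117 for SRSF1, -0.0123 for SRSF3 and -0.0592 for SRSF6, and in 4SU+UVA against 4SU -0.0255 for SRSF11. Quantile normalisation gave -0.0268 for SRSF6 in UVA against untreated cells, and 0.0294 for SRSF6 and 0.0427 for SRSF11 in 4SU+UVA against UVA, and voom gave 0.0079 for SRSF4 in UVA against untreated cells. Leaving out single libraries gave -0.0231 to 0.0187 for SRSF6 in 4SU+UVA against untreated cells, -0.0588 to 0.0641 for SRSF4 and -0.012 to 0.0465 for SRSF6 in UVA against untreated cells, and -0.0453 to 0.0161 for SRSF6 and -0.0499 to 0.0176 for SRSF11 in 4SU+UVA against UVA. The cause of these shifts was not tested. CLK1, with 55 to 286 reads a library, is the gene for which depth limits precision most.

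Replicates with the same number did not deviate together (correlations from -0.0457 to 0.0679). These correlations cannot show whether libraries with the same number were prepared as a set. With the replicate number as a block, 6 members were higher and 1 lower in 4SU+UVA against untreated cells, with 4697 of all genes higher and 2121 lower, and the counts of members were those of the fit without it in all 6 comparisons.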
